A study of Mus musculus with 8 samples.

Results

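Complex I, the NADH:ubiquinone oxidoreductase, takes electrons from NADH into the mitochondrial respiratory chain and pumps protons across the inner membrane. Most of its subunits are encoded in the nucleus, but 7 subunits of its membrane arm are encoded by the mitochondrial DNA and made inside the organelle. Their messengers are cut from long polycistronic RNAs, usually at the transfer RNAs that stand between genes, and most receive a short poly-A tail. Hepatocytes are rich in mitochondria, where complex I reoxidises the NADH that fatty acid oxidation yields, and it is known as a site of reactive oxygen production.

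The transcripts described here are those 7 genes, mt-Nd1, mt-Nd2, mt-Nd3, mt-Nd4l, mt-Nd4, mt-Nd5 and mt-Nd6, found by symbol in a table of 55416 gene rows. They are 7 of the 13 protein-coding rows and of the 37 rows of the mitochondrial genome. The data are poly-A RNA sequencing of liver from 8 mice, 1 library each, 4 of genotype Sost-/- and 4 of genotype SostPB/-, and every animal was on an MCD diet. In this field MCD usually stands for a diet without methionine and choline, used to induce steatohepatitis. The Sost product, sclerostin, is secreted and blocks Wnt signals; the study set out to learn what overexpressing it does in this liver disease. Both genotypes as written hold a "-" allele and no group is labelled wild type. The meaning of PB is left unexplained in the labels, as are which group overexpresses Sost, the strain, the age and the cells that express the allele. The labels number the replicates as biological, and p-values measure the spread between these 8 mice.

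Total counts ranged from 9578086 to 14932773 per library. The mitochondrial rows took 51.9% ± 5.14 of all counts in Sost-/- and 59.3% ± 3.92 in SostPB/- (SD, n = 4), a difference that gave p = 0.114 in an exact permutation test, two-sided. The row named Sost held 0 counts in 8 of 8 libraries, which allows up to 3 counts each. That row, however, does not check the labels, because nuclear row names do not match liver expression. Of 8 hepatocyte marker rows, 4 (Ttr, Ahsg, Apob and Cyp2e1) held 0 counts in all libraries and 1 reached a mean of 100 counts. Summed counts of these rows were 325 to 2146 in Sost-/- and 599 to 2389 in SostPB/-. Of the 7 immune, 3 endothelial, 4 stellate cell, 3 cholangiocyte and 2 erythroid marker rows, 3, 0, 3, 3 and 1 held 0 counts throughout. A change in cell makeup could therefore not be read from these rows, and in whole liver fewer cells of a type and less RNA per cell cannot be told apart. Only mitochondrial rows are read by name here.

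The genes lie on the mitochondrial chromosome of GRCm38 (GENCODE M21), and each is a single exon with no intron. mt-Nd1 (ENSMUSG00000064341.1) lies at chrM:2751-3707 and mt-Nd2 (ENSMUSG00000064345.1) at chrM:3914-4951. Farther along the same strand, mt-Nd3 (ENSMUSG00000064360.1) lies at chrM:9459-9806, mt-Nd4l (ENSMUSG00000065947.1) at chrM:9877-10173, mt-Nd4 (ENSMUSG00000064363.1) at chrM:10167-11544 and mt-Nd5 (ENSMUSG00000064367.1) at chrM:11742-13565. mt-Nd6 (ENSMUSG00000064368.1), at chrM:13552-14070, is the only member on the opposite strand. The first 30 bases of each annotated transcript are shown because they set the members apart: the start codon, in capitals, takes 5 different forms.

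mt-Nd1: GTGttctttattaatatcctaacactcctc
mt-Nd2: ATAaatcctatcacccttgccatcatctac
mt-Nd3: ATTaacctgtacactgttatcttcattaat
mt-Nd4l: ATGccatctaccttcttcaacctcaccata
mt-Nd4: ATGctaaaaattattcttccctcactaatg
mt-Nd5: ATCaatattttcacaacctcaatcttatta
mt-Nd6: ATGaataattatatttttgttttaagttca

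The annotated transcripts end in different stops, and the last 30 bases of mt-Nd1, mt-Nd4 and mt-Nd6 are given with the letters of the stop in capitals. These are ends of the annotation, and where the RNA itself ends was not measured. mt-Nd4 ends 1 base into its last codon, so its annotated sequence holds only the first letter of a stop, and a poly-A tail is what completes such a codon. The other 6 members end in a full TAA or TAG.

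mt-Nd1 end: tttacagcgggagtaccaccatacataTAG
mt-Nd4 end: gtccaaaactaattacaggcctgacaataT
mt-Nd6 end: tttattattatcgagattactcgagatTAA

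Members that share bases cannot be fully separated in counts, and no source used here tells whether reads were counted by strand. mt-Nd4l and mt-Nd4 overlap by 7 bases on the same strand, and mt-Nd5 and mt-Nd6 by 14 bases on opposite strands. Each overlap is shown in capitals with 20 bases on either side, on the strand of mt-Nd5 in the second case. The shared annotated bases are 2.36% of mt-Nd4l and 0.508% of mt-Nd4, and 0.768% of mt-Nd5 and 2.70% of mt-Nd6. If strand was ignored in counting, the mt-Nd6 row could hold opposite-strand reads beyond these bases. How many was not tested.

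mt-Nd4l into mt-Nd4, chrM:10147-10193: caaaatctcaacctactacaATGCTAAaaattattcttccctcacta
mt-Nd5 into mt-Nd6, chrM:13532-13585: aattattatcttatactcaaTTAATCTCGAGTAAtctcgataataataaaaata

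Base composition also separated mt-Nd6 from the rest. Its transcript was 28.1% G and 5.97% C, whereas the other members held at most 11.6% G, in mt-Nd1, and at least 22.1% C, in mt-Nd3. The longest run of A was 3 bases in mt-Nd6 and from 4 bases in mt-Nd4l to 8 in mt-Nd2 among the others.

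Some members have close copies in the nuclear genome, which could take or lend reads. Among GENCODE transcripts, aligned at 85% identity or more over at least 50 bases, mt-Nd4l matched the pseudogene Gm10222 on chromosome 1 over 294 bases at 100% identity. mt-Nd4 matched Gm28439 over its first 876 bases, also at 100%, and mt-Nd3 matched Gm28438 over 345 bases at 99.7%. These pseudogenes lie side by side, from 24611535 to 24613119 on chromosome 1. mt-Nd2 matched Gm13339 over 510 bases at 96.7%, mt-Nd5 matched Gm4076 over 954 bases at 95.2% and Gm11407 over 1055 bases at 92.4%, and mt-Nd6 matched Gm11408 over 519 bases at 93.6%. mt-Nd1 had no match among these transcripts. The rows of the copies held 0 counts, apart from Gm4076 with 33 counts over all 8 libraries, but nuclear rows cannot be read by name here. With regard to these copies, counts of mt-Nd3, mt-Nd4l and mt-Nd4 are the least certain.

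Levels of different genes were compared per length, as counts per kilobase of annotated gene, and expressed as a percentage of the same quantity summed over the 13 protein-coding rows. On this scale complex I messengers took the last 5 places among the 13 rows on average. mt-Nd1 stood highest among them, at 8.32% on average over the 8 libraries (7.45% to 9.29%), followed by mt-Nd2 at 7.28% (6.80% to 8.52%). mt-Nd6 had 4.55% (4.09% to 5.15%), mt-Nd5 3.56% (3.04% to 4.01%) and mt-Nd4 3.34% (3.12% to 3.68%). The lowest were mt-Nd4l at 2.20% (1.51% to 2.63%) and mt-Nd3 at 1.08% (0.768% to 1.43%). By comparison mt-Co1, the catalytic subunit of cytochrome oxidase, had 19.6% (16.6% to 23.3%).

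The order of the members was nearly fixed. Each of the 5 other neighbouring pairs in that order kept it in 8 of 8 libraries, and only mt-Nd5 and mt-Nd4 changed places, with mt-Nd5 higher in 6 of 8 and a ratio of 0.939 to 1.23. mt-Nd1 exceeded mt-Nd2 by a ratio of 1.03 to 1.26. mt-Nd4l and mt-Nd4 are known as reading frames of a shared messenger, yet the mt-Nd4 level per length was 1.22 to 2.12 times that of mt-Nd4l. mt-Nd3 and mt-Nd4l are also the shortest members, at 348 and 297 bases, and a level divided by the full gene length is less exact for such short genes. mt-Nd6 lay above mt-Nd5, its overlapping neighbour on the other strand, by a ratio of 1.15 to 1.38, although the mt-Nd6 messenger is known in human cells to carry little or no poly-A tail. Since the strand setting is unknown, this level cannot be assigned to the mt-Nd6 messenger alone.

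**Figure D1:**
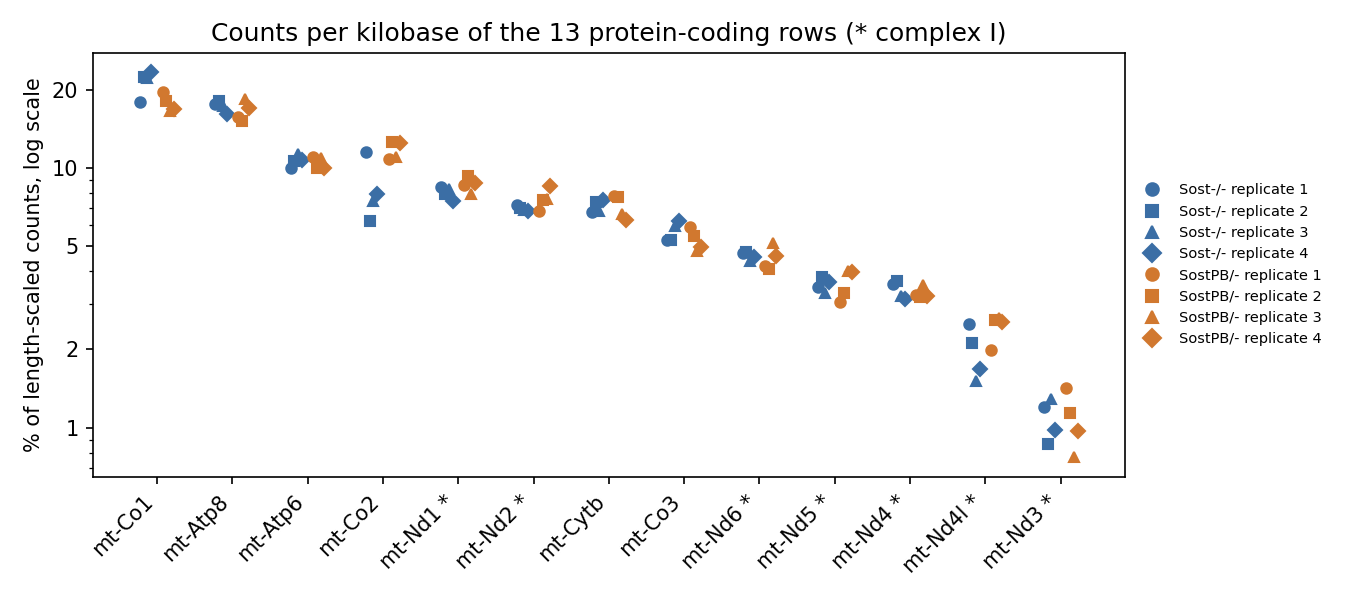
Counts per kilobase of the 13 protein-coding mitochondrial rows in each library, as a percentage of their sum (log axis), ordered by the mean; colour gives the genotype, marker the replicate, and an asterisk marks complex I. mt-Nd1 leads the complex I members at 8.32% on average and mt-Nd3 is last at 1.08%.

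Whether complex I messengers differ between the genotypes was then examined. All 7 had higher mean levels in SostPB/-, where 48.8% of all rows had a log2 fold change above 0. Their values were log2 fold changes of 0.35 (mt-Nd3) to 0.72 (mt-Nd4l) with a median of 0.46, but in none of them did the difference pass the test. In edgeR's quasi-likelihood test 0 of 7 reached an adjusted p of 0.05, where 0% of the 10020 rows tested did (646 rows had an unadjusted p under 0.05, and DESeq2 called 52). An unadjusted p under 0.05 was found for 3 of the 7, all higher in SostPB/-, where 2.98% of all rows had such a p in that direction and 6.45% in either. The groups were apart in 0 of 7 members, where 1.74% of all rows lay apart with SostPB/- higher. Most members varied together from library to library, so the 7 values are not 7 separate pieces of evidence. CPM are counts scaled to a common library size with TMM. The median log2 fold change of all rows was -0.01.

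mt-Nd1 encodes the subunit that lines the entrance of the ubiquinone channel. In the Sost-/- libraries, replicates 1 to 4, it had 57356, 36797, 35427 and 29339 CPM. The SostPB/- libraries, in the same order, had 45873, 60524, 65725 and 55810.0 CPM. Sost-/- replicate 1 lay among the SostPB/- libraries, and the other 3 Sost-/- libraries were below all of SostPB/-. The means were 39729.7 ± 12189 and 56983 ± 8441 CPM (SD, n = 4), and the fold change on the log2 scale was 0.52 (SE 0.21, 95% interval 0.06 to 0.98). The unadjusted p in edgeR was 0.0309 and the adjusted p 0.736.

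The small subunits come next, which join the quinone module to the proton-pumping part of the membrane arm. mt-Nd3, whose loop takes part in the switch between active and resting enzyme, had 2986, 1460 and 2005 CPM in Sost-/- replicates 1 to 3 and 1402 in replicate 4. In SostPB/- it had 2780, 2691, 2318 and 2251 CPM. The highest value was thus that of Sost-/- replicate 1, and the SostPB/- libraries lay close together, with 2509.6 ± 264 CPM against 1963 ± 734 CPM in Sost-/- (SD, n = 4). Its log2 fold change was 0.35 (SE 0.23, 95% interval -0.16 to 0.87), the smallest of the 7 (edgeR adjusted p = 0.924).

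mt-Nd4l, a short subunit beside mt-Nd6 in the membrane arm, had 5308, 3061, 2002 and 2058 CPM in Sost-/- and 3317, 5266, 6778 and 5052 CPM in SostPB/-. It was the most variable member, with a 3.39-fold range over the 8 libraries against 2.13-fold to 2.39-fold for the others. Sost-/- replicate 1 was second highest of all libraries, and SostPB/- replicate 1 lay close to Sost-/- replicate 2. Its log2 fold change of 0.72 (SE 0.32, 95% interval 0.00 to 1.43) was the largest among the members, with an unadjusted p of 0.0493 and an adjusted p of 0.773 in edgeR.

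mt-Nd6, the light-strand gene of the family, had 17407, 11944, 10085 and 9716 CPM in Sost-/- and 12222, 14466, 23203 and 15762 CPM in SostPB/-. SostPB/- replicate 3 was the highest by a wide margin, Sost-/- replicate 1 came second, and 3 Sost-/- libraries were below all SostPB/- ones. The log2 fold change was 0.42 (SE 0.24, 95% interval -0.11 to 0.95; edgeR adjusted p = 0.899).

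The remaining members, mt-Nd2, mt-Nd4 and mt-Nd5, are the antiporter-like subunits that carry proton channels. mt-Nd2 had 53123, 35239, 31742 and 29066 CPM in Sost-/- and 39553, 52935, 68084 and 58896 CPM in SostPB/-. Only Sost-/- replicate 1 reached into the SostPB/- range. The means were 37292.5 ± 10852 and 54867 ± 11961 CPM (SD, n = 4). The log2 fold change was 0.56 (SE 0.22, 95% interval from 0.07 to 1.05), with an unadjusted p of 0.0297, the lowest of the members, and an adjusted p of 0.732 in edgeR.

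mt-Nd4 had 35094, 24658, 19722 and 17708 CPM in Sost-/- and 24972, 29808, 42250.0 and 29543 CPM in SostPB/-. SostPB/- replicate 1 stood just above Sost-/- replicate 2. The log2 fold change was 0.38 (SE 0.23, 95% interval -0.14 to 0.90; edgeR adjusted p = 0.907). mt-Nd5, at the far end of the arm, had 45121, 33838, 26766 and 27319 CPM in Sost-/- and 31031, 40826, 63439 and 48076 CPM in SostPB/-. The groups overlapped here too, since SostPB/- replicate 1 lay below Sost-/- replicate 2 as well as replicate 1. The log2 fold change was 0.46 (SE 0.24, 95% interval -0.06 to 0.99; edgeR adjusted p = 0.837).

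**Figure D2:**
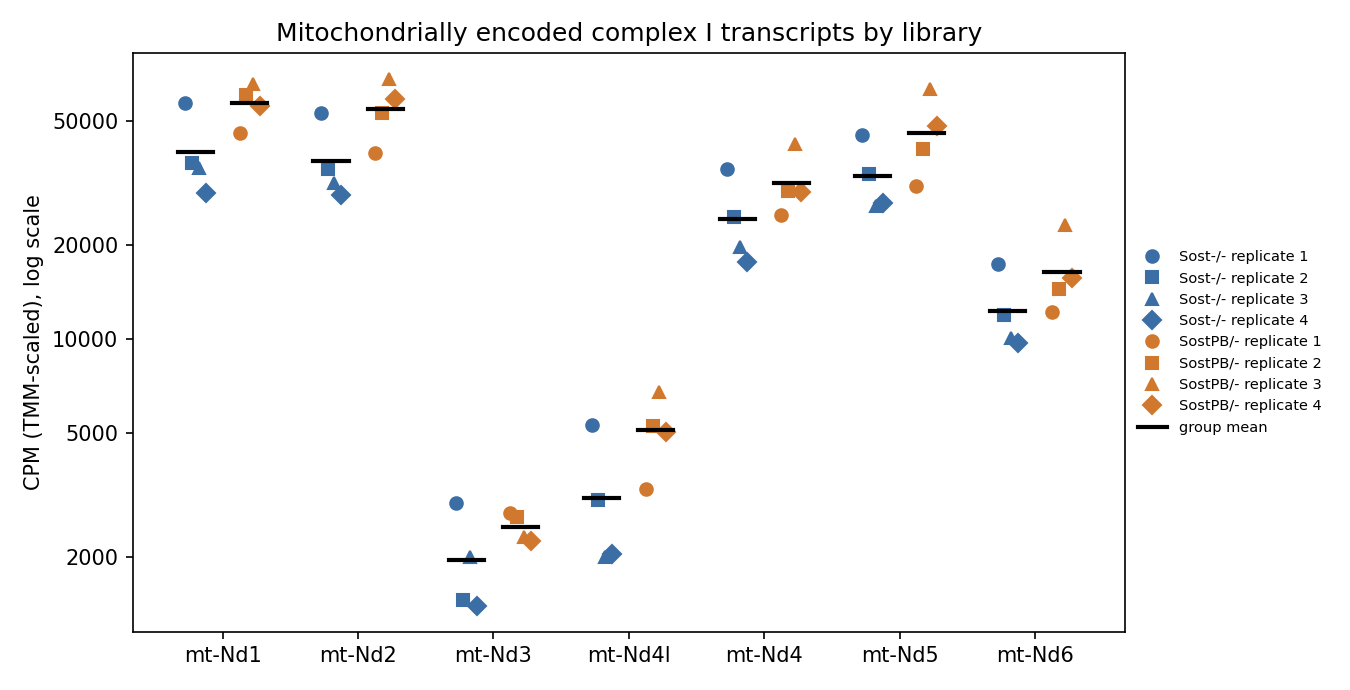
TMM-scaled CPM (log axis) of each complex I member in each library, with the group mean as a bar; colour gives the genotype and marker the replicate. The Sost-/- replicate 1 point lies inside or above the SostPB/- range for every member, and SostPB/- replicate 3 is the highest library in 6 of the 7.

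A pair of libraries thus stood against their groups in the family: Sost-/- replicate 1, always among the 3 highest of the 8, and SostPB/- replicate 1, the lowest of its group in 6 of 7 members. Sost-/- replicate 1 also had the largest total, 14932773 counts, and a mitochondrial share of 59.2%, where the other Sost-/- libraries had 47.4% to 51.6%. The part of depth or RNA quality in this was not tested. Without Sost-/- replicate 1 the log2 fold changes were 0.75 for mt-Nd1, 0.78 for mt-Nd2, 0.63 for mt-Nd3, 1.11 for mt-Nd4l, 0.61 for mt-Nd4, 0.65 for mt-Nd5 and 0.63 for mt-Nd6. Then 7 of 7 had an unadjusted p under 0.05, where 731 of the 10489 rows tested did. An adjusted p under 0.05 was found for 0 of 7, where 4 of all rows had one. The lowest adjusted p among the members was 0.282 for mt-Nd1 (edgeR). This library was singled out by the members' own values, so part of the rise follows from that choice. SostPB/- replicate 3 weighed the other way. Without it the log2 fold changes were 0.21 for mt-Nd4, 0.26 for mt-Nd5 and 0.20 for mt-Nd6. In that fit 0 of 7 had an unadjusted p under 0.05, where 529 of 10552 rows did (adjusted p of 0.9998 for each member in edgeR). mt-Nd3 stood at 0.24 and 0.22 without Sost-/- replicates 2 and 4.

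**Figure D3:**
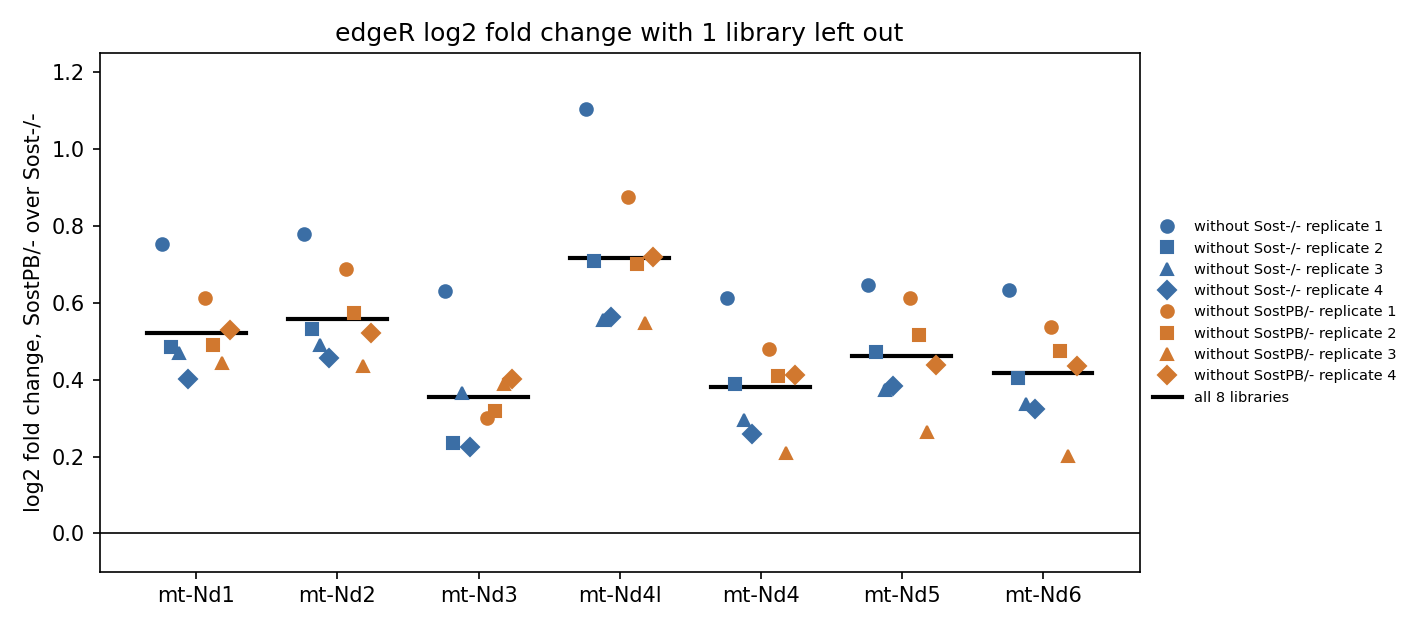
edgeR log2 fold change of each member with 1 library left out (points; colour for the genotype and marker for the replicate left out), and with all 8 libraries (bar). Leaving out Sost-/- replicate 1 gave the highest value for every member, up to 1.11 for mt-Nd4l, and no value fell below 0.

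The members were set against the other mitochondrial rows. The 6 remaining protein-coding rows, of complexes III, IV and V, had 0 that passed, 3 with an unadjusted p under 0.05 and a median log2 fold change of 0.40, from 0.18 in mt-Co1 to 0.87 in mt-Co2. The complex I values lay within that range. The ribosomal RNAs mt-Rnr1 and mt-Rnr2, made from the same strand as most members, had -0.12 (SE 0.22) and -0.14 (SE 0.22). Of the 19 transfer RNA rows tested, 16 were above 0 and 0 passed, with a median of 0.24. Plain library totals, in place of TMM, moved the median of all rows to -0.21 and the members to 0.35 for mt-Nd1, 0.38 for mt-Nd2, 0.21 for mt-Nd3, 0.56 for mt-Nd4l, 0.20 for mt-Nd4, 0.27 for mt-Nd5 and 0.23 for mt-Nd6, with 0 of 7 called.

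**Figure D4:**
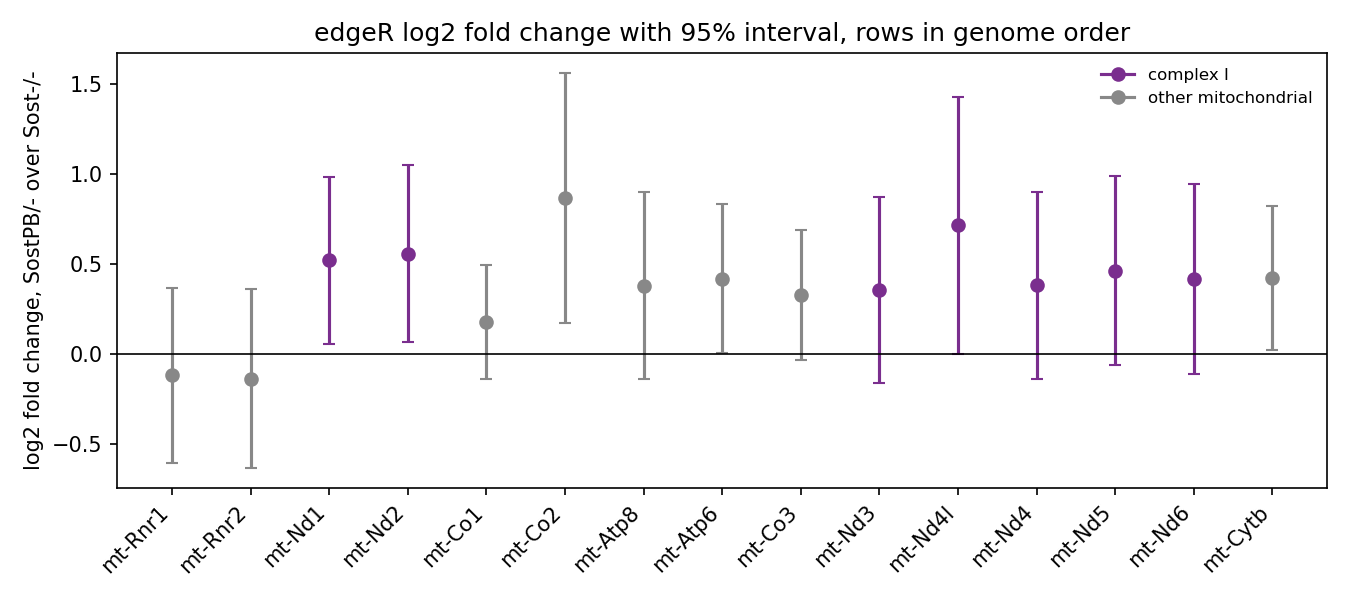
edgeR log2 fold change of SostPB/- over Sost-/- with its 95% interval (bars) for the 2 ribosomal RNA and 13 protein-coding mitochondrial rows in genome order, complex I in purple. The complex I points lie between 0.35 and 0.72, within the range of the other protein-coding rows, and the ribosomal RNAs lie just below 0.

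The share of mitochondrial counts asks a separate question, whether a member changed against the rest of the mitochondrial RNA. Together the 7 members held 15.8% ± 2.45 of all counts in Sost-/- and 19.7% ± 2.59 in SostPB/-, and 30.4% ± 1.68 and 33.1% ± 2.55 of the mitochondrial counts (SD, n = 4), given without a test. The shares of mitochondrial counts were 32.5%, 31.1%, 29.3% and 28.8% in the Sost-/- libraries in order and 29.9%, 32.3%, 34.9% and 35.5% in those of SostPB/-. Only SostPB/- replicates 3 and 4 lay above all Sost-/- libraries. The ribosomal RNAs together had lower means in SostPB/-, at 3.59% ± 0.893 of mitochondrial counts against 4.90% ± 0.710 in Sost-/- (SD, n = 4). The other 6 protein-coding rows together had 62.9% ± 1.67 in SostPB/- and 64.2% ± 1.97 in Sost-/-. Among them mt-Co1 had 29.6% ± 1.58 against 34.2% ± 3.13, and mt-Co2 went the other way, at 8.68% ± 0.750 against 5.89% ± 1.75.

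The mean share was higher in SostPB/- for 7 of 7 members, where 16 of the 35 mitochondrial rows tested had a higher mean share. None of the members passed the test. Shares add up to a fixed total, so a rise in some rows goes with a fall in others. mt-Nd1 had 7.94% ± 0.571 of mitochondrial counts in Sost-/- and 8.92% ± 0.480 in SostPB/- (SD, n = 4; two-sided exact permutation, p = 0.0857). mt-Nd2 had 7.47% ± 0.352 and 8.53% ± 0.952 (exact permutation test, p = 0.0857), and mt-Nd4l 0.603% ± 0.152 and 0.787% ± 0.112 (exact permutation test, p = 0.0857). For these members the adjusted p over the 35 mitochondrial rows tested was 0.250. The shares of the other 4 differed by less than the spread between libraries. mt-Nd3 had 0.391% ± 0.0747 and 0.402% ± 0.0938 (exact permutation test, p = 0.886), mt-Nd4 4.85% ± 0.461 and 4.91% ± 0.358 (p = 0.886), mt-Nd5 6.70% ± 0.421 and 7.06% ± 1.14 (p = 0.514) and mt-Nd6 2.46% ± 0.133 and 2.53% ± 0.335 (p = 0.83; SD, n = 4 in each; exact permutation tests). Whether mt-Nd1, mt-Nd2 and mt-Nd4l differed from the other members was not tested. In total 0 of 7 members passed and 0 had an unadjusted p under 0.05, where 5.71% of the 35 rows did. The groups were apart in 0 of 7, where 2.86% of these rows lay apart with SostPB/- higher. With 4 against 4 libraries the smallest exact p is 0.0286, so over 35 rows a member could pass only together with many other rows. No adjusted p came below 0.25, and this test could hardly have shown a change in single members.

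**Figure D5:**
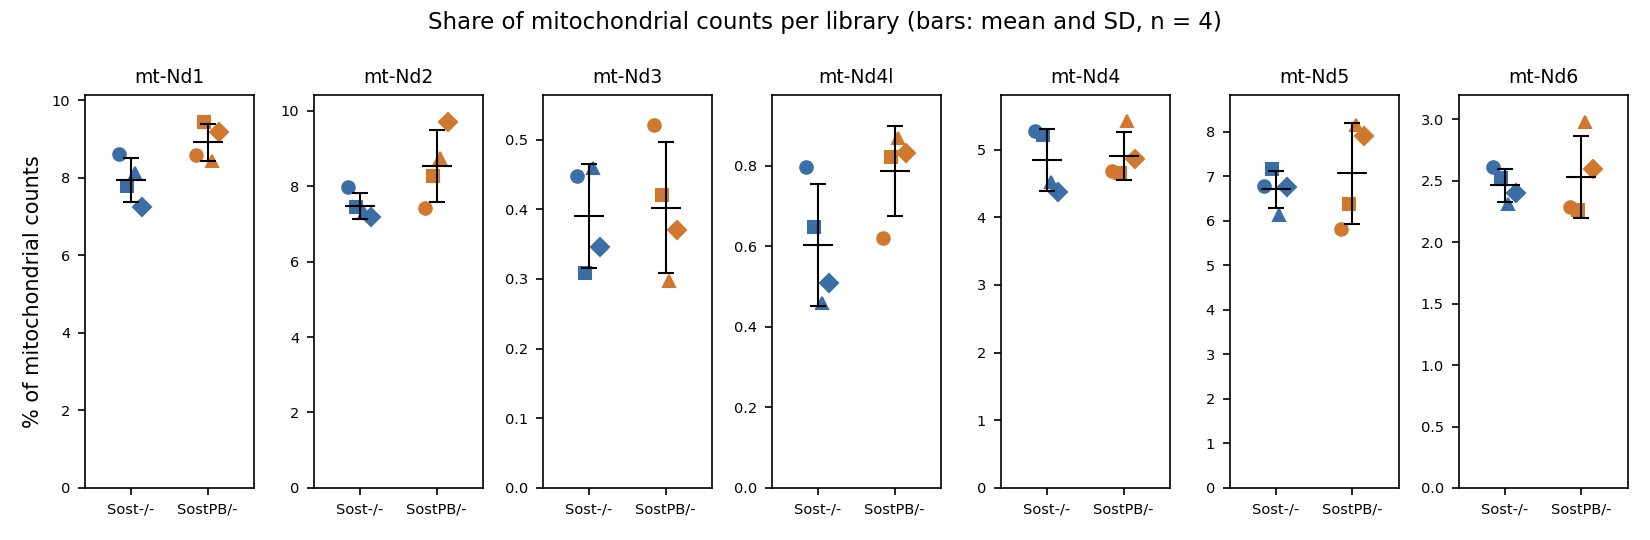
Share of mitochondrial counts (percent, each panel from 0 on its own scale) of each complex I member in every library by genotype, with mean and SD (bars, n = 4); markers give the replicate as circle, square, triangle and diamond for 1 to 4. All 7 members have a higher mean in SostPB/-, as do 16 of the 35 mitochondrial rows tested. The means run from 8.92% against 7.94% in mt-Nd1 to 0.402% against 0.391% in mt-Nd3, and the groups overlap in each.

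The patterns over libraries sorted the members further. Likeness was measured among 34 mitochondrial rows as the root-mean-square difference of mean-centred log2 CPM over the 8 libraries, where 0 means the same profile. Rows of 1 library share depth and scaling, so some likeness is built in. mt-Nd6 lay close to mt-Nd4 (0.073) and to mt-Nd5 (0.079), but mt-Nd4 and mt-Nd5 were not among each other's 3 nearest rows. The row nearest to both mt-Nd4 (0.061) and mt-Nd6 (0.049) was mt-Atp8, a small subunit of ATP synthase. mt-Nd1 and mt-Nd2 were nearest to each other at 0.103. mt-Nd1 came next to mt-Atp6 (0.139) and mt-Cytb (0.141), and mt-Nd2 next to mt-Nd5 (0.114) and mt-Nd6 (0.128). For each of these 5 members the median distance to the other 33 rows was 0.258 to 0.329.

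mt-Nd4l and mt-Nd3 followed other rows. mt-Nd4l was nearest to mt-Nd2 (0.228) and to the transfer RNA rows mt-Tm (0.230) and mt-Tq (0.248), and not to mt-Nd4, with which it overlaps. The count of mt-Nd4l was 0.151, 0.124, 0.101 and 0.116 of that of mt-Nd4 in the 4 Sost-/- libraries in order, and 0.133, 0.177, 0.160 and 0.171 in those of SostPB/-. mt-Nd3 had the transfer RNA rows mt-Tr (0.174), mt-Ti (0.210) and mt-Ts2 (0.213) as its nearest, and no other complex I member. These rows are low, at 3.27 to 6.41 CPM for mt-Tr, 18.9 to 48.1 for mt-Ti and 19.9 to 33.5 for mt-Ts2. Their profiles, and so these distances, are less exact. The count of mt-Nd5 over that of mt-Nd6, read without a known strand setting, stayed between 2.54 and 3.05 in all 8 libraries.

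The nuclear part of complex I could not be set beside these values. Of 51 rows named for nuclear subunits and assembly factors, 10 reached a mean of 100 counts and 17 were tested. Each was judged by the 10 nearest genes (9 for Ndufa2) of its chromosome from families that most cells express (ribosome, proteasome, respiratory chain, translation factors, splicing), 8 of which had to reach 100 counts. The best had 4, so none was read as the gene it names. Of the 36 rows named for nuclear subunits, 12 held 0 counts throughout. In edgeR 12 were tested: 0 passed, and an unadjusted p under 0.05 was found for 1.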

How the data were processed

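The authors deposited whole-number counts per gene, used for all tests, and a second table of normalized signal. Tools listed in the submitters' processing notes are HISAT2, StringTie and DESeq2, with build mm10. How reads became counts, the strand setting and the annotation were not given in sources used here. Each column of the deposited signal table equalled the counts divided by 1 factor (0.782 to 1.24), and 100% of its 22883 rows' values came back whole within 0.001. Tested as counts, they gave the same 0 of 10020 calls.

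Counts were fitted over all rows with edgeR 4.0.16 in R 4.3.3 (filterByExpr, TMM, glmQLFit, glmQLFTest, Benjamini-Hochberg over all tested rows, threshold 0.05). The SE is the log2 fold change over the square root of F. Shares of mitochondrial counts were compared by exact permutation (scipy 1.17.1), adjusted over the 35 mitochondrial rows whose mean count was 10 or more. Alternatives were DESeq2 1.42.0, limma 3.58.1 (voom), other scalings, filters and denominators, a replicate block and leaving out each library. Copies were sought with blastn 2.17.0. Sequences and positions are GENCODE M21 (GRCm38).

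In simulated counts with 9836 rows tested, edgeR recovered 19.2% of 2-fold and 74.7% of 4-fold changes, and called 7 unchanged rows. The changed rows were drawn from all rows above a low count limit, and each row was simulated independently. The members have high counts and most varied together, so these rates do not measure the power for them. Members and lists were chosen with earlier results of these data known. All members are named, with the 3 mitochondrial rows nearest to each in pattern.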

Additional observations from a re-analysis of the deposited data

How the results depend on the processing

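The members' log2 fold changes stayed positive in 119 of 119 refits over 17 other settings, and 0 of these passed. The settings reuse the same libraries, so the refits are not separate evidence. Counts recovered from the second table had to repeat the main fit, since all 56 member values were equal. The number of members called was 0 in each setting. The number whose share of mitochondrial counts passed was 0 under the other denominators and with edgeR on mitochondrial rows. With 1 library left out no share could pass, because the smallest p of the exact permutation test is then 0.0571. The number with an unadjusted p under 0.05, 3 in the fit with all libraries, was 7 with limma-voom, 0 with the replicate block, and 0 to 7 when 1 library was left out. Among all rows such a p was found for 646 of 10020 in the main fit, 811 with limma-voom and 473 with the replicate block. With 1 library left out it was found for 474 of 10443 to 770 of 10483 rows. The number of all rows called, 0 in edgeR, was 52 of 14604 with DESeq2, 2 with no filter, 1 with a filter at a mean of 100 counts, 1 with limma-voom and 0 to 4 when 1 library was left out. The cause was not tested. The labels do not say whether the replicate numbers pair the mice. Deviations of same-numbered libraries correlated at -0.038, -0.013, -0.034 and 0.041, and 1 of 4 matched its own number best. These values cannot show how the mice were arranged.

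Share differences are in percentage points, SostPB/- minus Sost-/-. mt-Nd4, at 0.0608, was -0.0113 over the 13 protein-coding rows. Leaving out 1 library gave -0.112 to 0.201 for mt-Nd4, -0.0280 to 0.0465 for mt-Nd3, -0.00186 to 0.774 for mt-Nd5 and -0.0813 to 0.158 for mt-Nd6. It gave 0.748 to 1.20 for mt-Nd1, 0.669 to 1.43 for mt-Nd2 and 0.136 to 0.248 for mt-Nd4l. The difference in the mitochondrial share of all counts ranged from 5.67 to 9.79. The lowest count of any member in a library was 16293.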

Other observations

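A library far from the rest of its group was sought by Dixon's ratio in 34 sets of 4 values (CPM and shares of the members, and the summed shares), and 0 sets passed the critical value, where chance gives about 1 in 20. The transfer RNA row mt-Tw, which directly follows mt-Nd2, held 0.00305% ± 0.000765 of mitochondrial counts in Sost-/- and 0.00625% ± 0.00183 in SostPB/- (SD, n = 4), and its groups did not overlap (exact two-sided permutation test, p = 0.0286, the smallest the design can give; adjusted p = 0.250 over 35 rows). The transfer RNA row mt-Tc had the same p in that test and groups apart, but with lower shares in SostPB/-. In CPM the groups of mt-Tw overlapped. The mt-Tw log2 fold change was 1.35 (SE 0.36) beside 0.56 for mt-Nd2, and its edgeR adjusted p over all rows was 0.556. With edgeR on mitochondrial rows alone mt-Tw passed, at a log2 fold change of 1.03 (SE 0.23, adjusted p = 0.00459). So did mt-Co2, at 0.56 (adjusted p = 0.00891), and mt-Co1, at -0.21 (adjusted p = 0.0371). These values are relative to the mitochondrial counts. In CPM the mean of mt-Co1 was higher in SostPB/-, at 188601 against 166379 in Sost-/- (log2 fold change 0.18 over all rows). The exact permutation test on shares gave an adjusted p of 0.25 for mt-Co2 and for mt-Co1, with overlapping groups. With the replicate block the edgeR adjusted p was 0.000339 for mt-Tw, 0.000415 for mt-Co2 and 0.0772 for mt-Co1. The labels do not say whether the replicate numbers pair the mice. In edgeR the spread of a row is estimated partly from the other rows, here only 35 that share 1 total. These small adjusted p therefore do not measure the spread between mice in that row alone.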
